A study of Mus musculus with 28 samples.

Results

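Interferon response genes were followed across RNA libraries of mouse pancreatic islets. The set was fixed as a list of names, with earlier results of these data known. Of 47 gene symbols given, 44 matched a row among the 14219 genes of the deposited matrix. Oas2, H2-D1 and Socs1 matched no row by symbol. The row listed as H2-L carries the Ensembl identifier that GENCODE M21 assigns to H2-D1, and it is described with the other class I genes. Of the 44 genes, 40 reached 1 CPM (reads scaled to library size) in at least 6 libraries and were tested. Isg15, Ifi44, Mx2 and Nlrc5 fell below that level and are given as values only.

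The study asked which islet genes differ between control and βKlf6KO mice after saline or after S961, an insulin receptor antagonist peptide. All mice were males of 10 to 12 weeks on a C57Bl6 and 129sv background, and all carried floxed Klf6 alleles (Klf6flox/flox). Control mice had 2 intact Ins1 alleles (Ins1+/+), while βKlf6KO mice had Cre recombinase inserted in 1 Ins1 allele (Ins1Cre/+), which drives Cre in β cells, so the other islet cells keep Klf6. Saline had been given to 6 mice of each labelled genotype and S961 to 8 of each. Each library came from 120 to 150 hand-picked islets of 1 mouse after overnight culture, and replicates are therefore separate mice.

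Interferons are secreted proteins that bind cell-surface receptors and act through JAK kinases and STAT transcription factors. Type I interferons lead to a complex that holds STAT2 and IRF9 and binds the interferon-stimulated response element (ISRE). Interferon-γ acts through the γ-activated site (GAS). The genes reached in this way sense viral RNA, block viral replication, and raise peptide display on class I molecules. In islets they are best known from type 1 diabetes, in which β cells near invading immune cells carry abundant class I molecules. Macrophages and lymphocytes express many of the same genes.

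Start-site sequences are shown because the members were grouped by a response that acts through these elements. RefSeq promoter windows (GRCm38.p6, 250 bases before to 50 after each start) were matched for 31 of the 44 genes. An ISRE core, spelled as GAAA, any 2 bases and GAAA again and searched on both strands, was in 16 of them (51.6%), against 3.99% of 27025 symbols with a window of the same length. A GAS, spelled TTCNNNGAA and the same on both strands, was in 9 (29.0%), against 9.55%. Both elements occurred in 4 genes and neither in 10. An overlap of 2 ISRE cores counted as 2 matches, and a match describes letters only. In the windows below, 5′ to 3′ on the gene's own strand, capitals mark ISRE cores (GAS elements for Irf8 and Irf1). Cxcl10 and Isg15 were shown by a fixed rule, an ISRE core in a member among those of widest range over the libraries. The others were chosen later.
Isg15 (chr4:156200856-156200915, minus strand): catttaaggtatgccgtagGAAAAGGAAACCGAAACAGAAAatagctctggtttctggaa
Cxcl10 (chr5:92349068-92349127, minus strand): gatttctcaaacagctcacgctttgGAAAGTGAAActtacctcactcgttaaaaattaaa
Gbp2 (chr3:142620579-142620638, plus strand): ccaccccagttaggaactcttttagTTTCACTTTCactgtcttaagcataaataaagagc
Gbp3 (chr3:142559977-142560036, plus strand): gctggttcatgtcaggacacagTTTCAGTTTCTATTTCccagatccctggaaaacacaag
Ifit3 (chr19:34583365-34583424, plus strand): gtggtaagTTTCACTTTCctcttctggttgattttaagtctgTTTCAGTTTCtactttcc
Irgm1 (chr11:48871413-48871472, minus strand): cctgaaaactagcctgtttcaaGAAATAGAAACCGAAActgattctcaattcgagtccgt
Irf8 (chr8:120736170-120736229, plus strand): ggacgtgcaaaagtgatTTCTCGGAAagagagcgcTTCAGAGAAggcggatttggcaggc
Irf1 (chr11:53769898-53769957, plus strand): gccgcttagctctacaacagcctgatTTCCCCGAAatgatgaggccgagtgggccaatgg
Isg15 held 3 overlapping cores in 1 run, Gbp3 and Irgm1 held 2 overlapping cores, and Ifit3 held 2 separate ones.

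Libraries held 28868638 to 45001633 reads over the listed genes, so a count of 3 reads corresponds to 0.0685 to 0.105 CPM (counting error only). Neither gene that could check the genotype labels separated the groups. The level of Klf6 was 7.0 ± 0.42 log2 CPM (SD, n = 6) for control and 6.97 ± 0.26 (n = 6) for βKlf6KO after saline (exact permutation test, two-sided, p = 0.890). After S961 it was 6.94 ± 0.72 (n = 8) and 7.22 ± 0.51 (n = 8), with an exact permutation p of 0.389. Counts over the whole gene and over all islet cells need not show a deletion in β cells, and the deleted exons were not stated in the material used. The log2 ratio of Ins1 to Ins2, which an Ins1 allele taken up by Cre would lower, was 0.34 higher in βKlf6KO after saline (exact permutation test, p = 0.357) and stood at a difference of -0.62 after S961 (p = 0.0558, and 0.223 adjusted over 4 tests). Groups are therefore named by their labels throughout. β cell markers were abundant in every group: the 10 listed summed to at least 58341 CPM in each library. The lowest sums were in control S961 replicates 8 (58341) and 2 (67211) and in control saline replicate 4 (58436). Group medians were 122929 in control S961 and 139415 in control saline. Acinar markers summed to between 3591 CPM (control S961 replicate 2) and 84770 CPM (βKlf6KO S961 replicate 8).

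No interferon response gene passed the test against the spread between mice in any of the 5 comparisons. In limma, with Benjamini-Hochberg adjustment over 13591 genes and a call at an adjusted p below 0.05, 0 of the 40 genes were called for the labelled genotype after saline, where 2.78% of all genes were called. None of the 40 was called for the labelled genotype after S961 either, where 4.36% of all genes were called. For S961 against saline in labelled control islets, in labelled βKlf6KO islets, and for the difference between those responses, 0 of the 40 and 0% of all genes were called. Weighting the recovered read counts with limma's voom also called 0 of the 40 in each comparison.

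At an unadjusted limma p below 0.05 the members stood as follows, beside the share of all genes at that level. After saline, 9 of 40 had such a p for the labelled genotype (6 with a higher mean in βKlf6KO, 3 with a lower one), where 14.4% of all genes had. After S961 there were 4 of 40, all with a higher mean, where 22.9% of all genes had. For S961 in labelled control islets it was 1 of 40 (0.765% of all genes), in labelled βKlf6KO islets 1 of 40 (3.04%), and for the difference of the responses 0 of 40 (2.58%).

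The median labelled genotype difference over the 40 genes was 0.19 (log2, βKlf6KO minus control) after saline and 0.16 after S961, against -0.00050 and 0.02 over all genes. The mean was higher in βKlf6KO for 29 of 40 genes after saline and 26 of 40 after S961. For S961 against saline the member medians were 0.01 in labelled control and -0.03 in labelled βKlf6KO islets. The comparisons did bound most members: the 95% confidence interval, without adjustment, lay within a 2-fold change in either direction for 27 of 40 genes after saline and 29 of 40 after S961. Over all genes it did so for 11001 and 11050 of 13591, a larger share than of the members. For S961 against saline the interval lay within 2-fold for 35 of 40 members in labelled control and 33 of 40 in labelled βKlf6KO islets, and for the difference of the responses for 25 of 40. Over all 13591 genes the counts were 11766, 11832 and 10101.

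**Figure D1:**
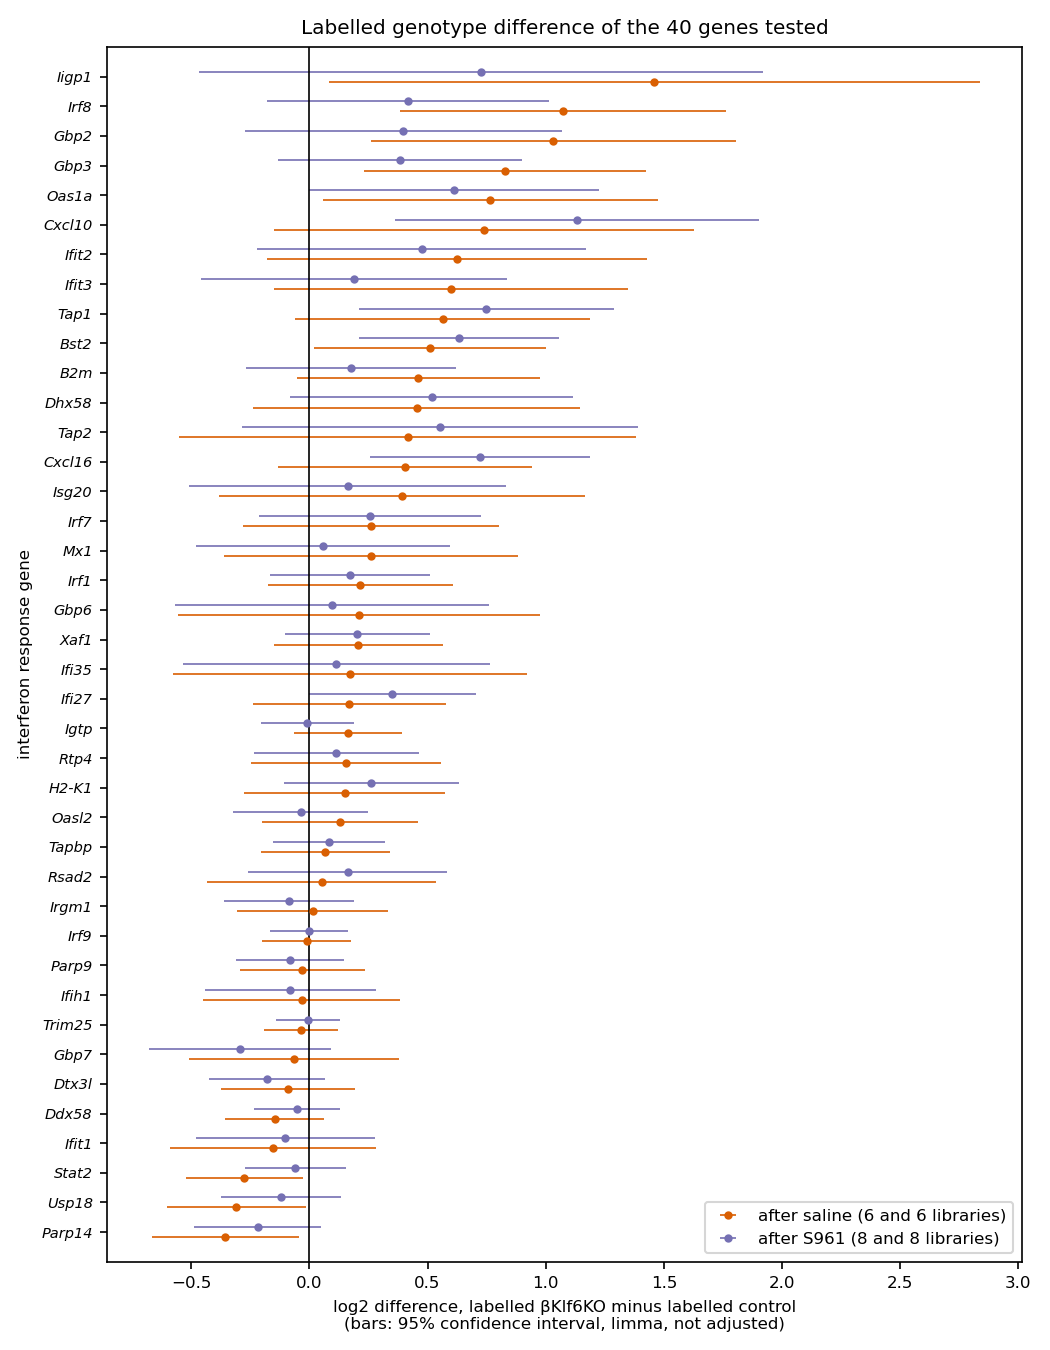
Log2 difference between libraries labelled βKlf6KO and control for each of the 40 genes tested, after saline (orange, 6 and 6 libraries) and after S961 (purple, 8 and 8 libraries); points are limma estimates and bars 95% confidence intervals without adjustment. Iigp1 has the highest point after saline, at 1.46, with the widest bars, while Trim25 and Irf9 lie near 0 with narrow bars.

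Per transcript length, the most abundant members were 3 of the class I genes. B2m, the light chain of class I molecules, averaged 149 CPM per kilobase of exon over the 28 libraries, and H2-K1, a class I heavy chain, 124. Tapbp, the chaperone that holds class I molecules at the peptide transporter, followed at 43.0, the exonuclease gene Isg20 at 25.3, Ifi27 at 20.7 and the ubiquitin ligase gene Trim25 at 15.4. At the other end stood Nlrc5 at 0.0757, Ifi44 at 0.110, Mx2 at 0.141 and Gbp6 at 0.299. Levels that differ this much belong to genes with 2 to 18907 reads in a library, so precision differed as well. No member was at 0 in any library.

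**Figure D2:**
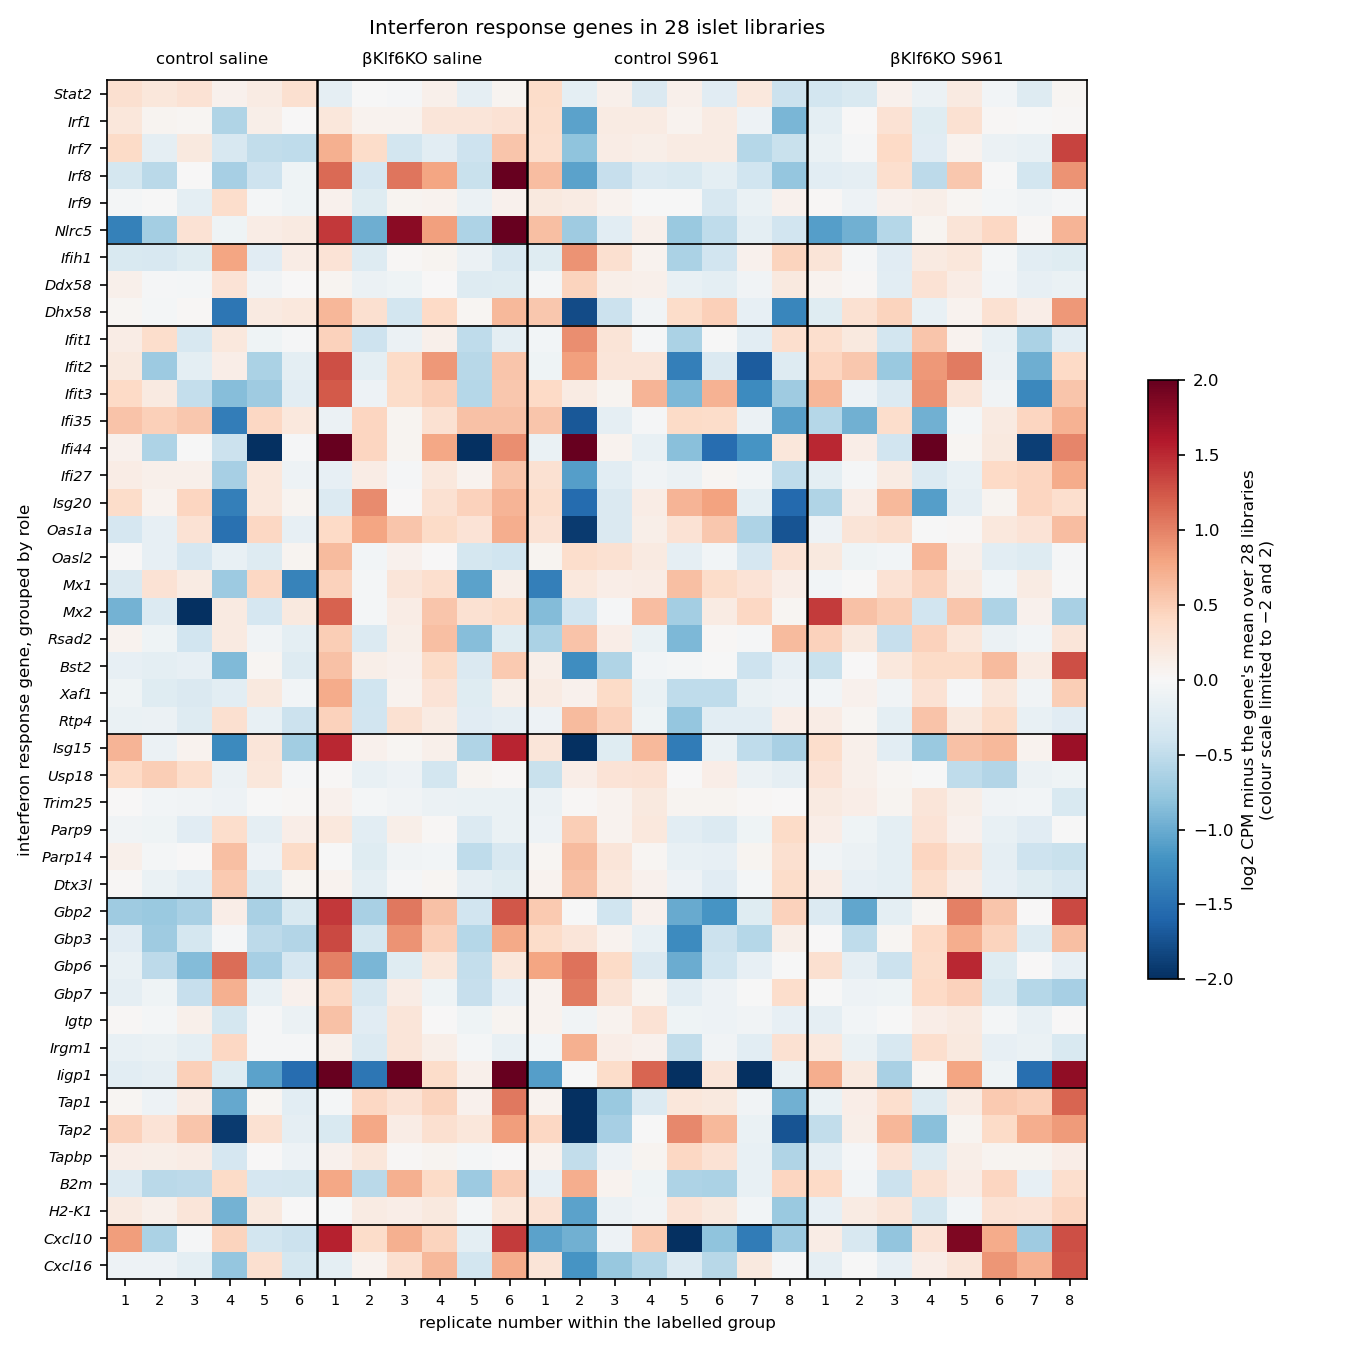
Log2 CPM of the 44 genes (rows, grouped by role) in each of 28 libraries (columns, by labelled group and replicate number), each minus the gene's mean over the 28 libraries; colours stop at -2 and 2. Control saline replicate 4 and control S961 replicates 2 and 8 stand out in blue for Tap2 and in red for Ifih1, and βKlf6KO saline replicates 1, 3, 4 and 6 in red for Irf8 and Gbp2.

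The transcription factors were led by Irf8, a factor that directs macrophage and B cell development and is induced by interferon-γ. Irf8 (ENSMUSG00000041515, GRCm38 chromosome 8, 120736358 to 120756694, plus strand) ranged from 0.35 to 1.01 log2 CPM, median 0.62, in control saline. It ranged from 0.57 to 3.18, median 1.93, in βKlf6KO saline. After S961 it ranged from -0.06 to 1.63, median 0.66, in control and from 0.49 to 1.90, median 0.91, in βKlf6KO. The groups overlapped under both treatments, because βKlf6KO saline replicates 2 and 5 stood at 0.68 and 0.57, within the control range. Replicates 1, 3, 4 and 6 stood at 2.14, 2.07, 1.79 and 3.18, all above it.

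The labelled genotype difference of Irf8 was 1.07 ± 0.34 (SE) after saline (limma adjusted p = 0.0859), with 5 of 6 βKlf6KO libraries above the control mean. Within the 4 sequencing lanes named in the labels it was 0.37 to 1.58. Without βKlf6KO saline replicate 2 it was 1.28 (limma adjusted p = 0.0249) and without replicate 5 it was 1.31 (0.0275). Leaving out any other library kept the adjusted p above the threshold. After S961 the difference was 0.42 ± 0.29 (limma adjusted p = 0.396), and within lanes it ran from -0.54 to 0.86.

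Irf8 moved with markers of macrophages. After removal of group means, its level and the mean of 17 macrophage markers had Pearson r = 0.88 and Spearman rho = 0.84 over 28 libraries (permutation p 1e-05 for both, the smallest that 100000 permutations give, 4e-05 and 5.2e-05 adjusted over 88 relations). Without the 2 libraries farthest from the median marker level, r was 0.83. The macrophage markers summed to 135 to 225 CPM in control saline, 218 to 991 in βKlf6KO saline, 138 to 306 in control S961 and 199 to 646 in βKlf6KO S961. None of the 17 was at 0 throughout a group, and 5 of 17 were called higher in βKlf6KO after saline (Fcgr3, Ctss, Lyz2, H2-Aa and Csf1r) and 1 of 17 after S961 (Cd14). With the macrophage and lymphocyte means as covariates, the Irf8 difference after saline was -0.075, and the part of these cells in the result was not tested. The macrophage list includes class II genes that interferon-γ can also induce (Cd74, H2-Aa, H2-Ab1 and H2-Eb1). Its mean is thus not independent of an interferon response, and the covariate cannot separate cells from response. In whole islets, fewer cells of a type and less RNA per cell cannot be told apart.

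Stat2, a transcription factor of the type I complex, had the smallest p of any member for S961 in labelled control islets. It ranged from 3.60 to 3.83 log2 CPM, median 3.77, in control saline and from 3.08 to 3.88, median 3.47, in control S961. The saline libraries lay close together at the top of the wide S961 range. The difference was -0.28 ± 0.11 (limma adjusted p = 0.973), with 7 of 8 S961 libraries below the saline mean.

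In libraries labelled βKlf6KO, Stat2 ranged from 3.33 to 3.61 (median 3.50) after saline and from 3.14 to 3.69 (median 3.42) after S961. After saline all 6 βKlf6KO libraries lay below the control mean, at a difference of -0.28 ± 0.12 (limma adjusted p = 0.272). The difference of the S961 responses was 0.22 ± 0.16 (limma adjusted p = 1.0).

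Of the remaining factors, Irf9, the DNA-binding subunit of the same complex, had group means of 4.53 to 4.55 log2 CPM, with labelled genotype differences of -0.01 after saline and -0.0017 after S961. Irf1, an early target of interferon-γ, had means of 5.24 to 5.57, and Irf7, the factor that amplifies type I interferon, of 1.42 to 1.72. Nlrc5, the activator of class I genes, was not tested and was read 6 to 98 times a library. Its mean was -1.18 ± 0.64 log2 CPM (n = 6) in control saline and -0.14 ± 1.32 (n = 6) in βKlf6KO saline, with its highest value of 1.37 in βKlf6KO saline replicate 6, the library with the highest Irf8.

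The RNA sensors Ifih1 (MDA5), Ddx58 (RIG-I) and Dhx58 (LGP2) had 0 of 3 called in any comparison. Ifih1 had group means of 5.56 to 5.69 log2 CPM and Ddx58 of 5.13 to 5.28. Dhx58 was less abundant, with means of 0.96 to 1.54 and labelled genotype differences of 0.45 ± 0.34 after saline and 0.52 ± 0.29 after S961 (limma adjusted p = 0.619 and 0.293).

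Among 15 antiviral effectors listed, 13 were tested, and 12 had a higher mean in βKlf6KO after saline and 11 after S961. Bst2 (tetherin), which holds budding virus at the cell surface, ranged from 1.23 to 2.16 log2 CPM, median 1.94, in control saline and from 1.83 to 2.71, median 2.37, in βKlf6KO saline. After S961 it ranged from 0.88 to 2.24, median 2.01, in control and from 1.68 to 3.42, median 2.42, in βKlf6KO. The S961 groups overlapped: βKlf6KO S961 replicates 1 and 2, at 1.68 and 2.13, lay below the highest control, and the other 6 lay above it.

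The labelled genotype difference of Bst2 was 0.63 ± 0.21 after S961 (limma adjusted p = 0.0712), with 7 of 8 libraries above the control mean, and 0.51 ± 0.24 after saline (limma adjusted p = 0.319). Within lanes it was -0.06 to 1.02 after S961 and 0.26 to 0.81 after saline. Without βKlf6KO S961 replicate 1 it was 0.74 after S961 (limma adjusted p = 0.0362), the only library whose removal brought Bst2 past the threshold. Bst2 also moved with the macrophage markers (Pearson r = 0.76, Spearman rho = 0.72, permutation p 1e-05 and 0.00013, adjusted 4e-05 and 0.00046, r = 0.71 without 2 libraries). This was not particular to Bst2: Tap1 (Pearson r = 0.79), Ifi27 (0.75), H2-K1 (0.69) and Oas1a (0.65) did so too, while Ifih1 ran the other way (-0.55). With the macrophage and lymphocyte means as covariates, the Bst2 difference after S961 was 0.24 (limma adjusted p = 0.366), and the part of these cells in it was not tested.

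Other effectors had wide spreads within groups. Oas1a, a sensor that feeds RNase L, differed by 0.77 ± 0.35 after saline (limma adjusted p = 0.291) and 0.61 ± 0.30 after S961 (0.219), with all 6 and all 8 βKlf6KO libraries above the control mean. Control saline replicate 4 (-0.18 log2 CPM) and control S961 replicates 2 and 8 (-0.61 and -0.41) held the lowest values and weigh on these means. The ranges overlapped: the highest controls stood at 1.73 and 1.85 and the lowest βKlf6KO libraries at 1.59 and 1.22. The table also holds the near-identical Oas1g and Ifit3b, so reads of Oas1a and Ifit3 may be shared with them. The cap and RNA binders Ifit2 and Ifit3 differed by 0.63 ± 0.39 and 0.60 ± 0.36 after saline, while Ifit1 differed by -0.15 ± 0.21. Rsad2 (viperin), Mx1, Oasl2, Xaf1, Rtp4, Ifi27, Ifi35 and Isg20 had labelled genotype differences of 0.05 to 0.39 after saline and -0.04 to 0.35 after S961.

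Ifi44 and Mx2 were near the limit of counting. Ifi44 ranged from -3.89 to -1.02 log2 CPM, median -1.34, in control saline and from -3.62 to 1.63, median -0.51, in βKlf6KO saline. It ranged from -2.63 to 0.88, median -1.25, in control S961 and from -2.99 to 1.17, median -0.95, in βKlf6KO S961. It was lowest in control saline replicate 5 (2 reads) and highest in βKlf6KO saline replicate 1 (119 reads), a range of 5.51 log2 units, and the groups overlapped throughout. Mx2 was read 3 to 40 times a library.

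Enzymes of ISG15 and of ubiquitin and ADP-ribose transfer were the only role with every tested gene lower in βKlf6KO under both treatments. The RNA sensors had 2 of 3 lower under each treatment. Isg15, of the same role as the enzymes but not tested, had higher medians in βKlf6KO, given below. All 5 tested (Usp18, Trim25, Parp9, Parp14 and Dtx3l) had a lower mean in βKlf6KO, with differences from -0.36 to -0.03 after saline and from -0.22 to -0.0056 after S961, with 0 of 5 called under either treatment. Parp9 and Dtx3l overlap on opposite strands of chromosome 16. The strand setting of the counting was not stated in the material used, so reads of this pair, and of Tap1 with Psmb9 or Irf9 with Rnf31, may be shared.

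Usp18, which strips ISG15 from proteins and dampens the type I receptor, ranged from 4.73 to 5.35 log2 CPM, median 5.14, in control saline and from 4.49 to 4.91, median 4.81, in βKlf6KO saline. It ranged from 4.41 to 5.14, median 4.92, in control S961 and from 4.27 to 5.12, median 4.81, in βKlf6KO S961. All 6 βKlf6KO saline libraries lay below the control mean, though the ranges overlapped. The difference was -0.31 ± 0.14 (limma adjusted p = 0.310), and S961 in labelled control islets gave -0.21 ± 0.13 (0.973).

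Trim25, the ligase that activates RIG-I, was the steadiest member. It ranged from 6.37 to 6.49 log2 CPM, median 6.43, in control saline and from 6.33 to 6.55, median 6.37, in βKlf6KO saline. It ranged from 6.35 to 6.66, median 6.5, in control S961 and from 6.15 to 6.71, median 6.55, in βKlf6KO S961. Its whole range over 28 libraries was 0.55 log2 units, the smallest of the 44 genes, and S961 in labelled βKlf6KO islets gave 0.10 ± 0.07 (limma adjusted p = 1.0).

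Isg15, the ubiquitin-like protein attached by this system, was a low-count gene with 3 to 51 reads a library. It ranged from -2.36 to -0.42 log2 CPM, median -1.11, in control saline and from -1.69 to 0.44, median -1.0, in βKlf6KO saline. It ranged from -3.08 to -0.44, median -1.47, in control S961 and from -1.84 to 0.61, median -0.86, in βKlf6KO S961. The ranges overlapped under both treatments.

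The guanylate-binding and immunity-related GTPases, which attack the vacuoles of intracellular pathogens, held Gbp3 and Gbp2, which followed Irf8 in order of p after saline. Of 7, 6 had a higher mean in βKlf6KO after saline and 4 after S961. Gbp2 (ENSMUSG00000028270, GRCm38 chromosome 3, 142620602 to 142638008, plus strand) ranged from 1.96 to 2.83 log2 CPM, median 2.05, in control saline and from 2.04 to 4.12, median 3.52, in βKlf6KO saline. It ranged from 1.52 to 3.23, median 2.58, in control S961 and from 1.66 to 4.03, median 2.72, in βKlf6KO S961. As for Irf8, the βKlf6KO saline libraries split: replicates 1, 3, 4 and 6 stood at 4.12, 3.75, 3.29 and 3.93, above every control, and replicates 2 and 5 at 2.04 and 2.32, among them.

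Gbp3 (GRCm38 chromosome 3, 142560026 to 142573209, plus strand) lies beside Gbp2 and ranged from 1.12 to 1.81 log2 CPM, median 1.39, in control saline and from 1.26 to 3.15, median 2.46, in βKlf6KO saline. It ranged from 0.58 to 2.20, median 1.80, in control S961 and from 1.33 to 2.57, median 2.05, in βKlf6KO S961. Iigp1 ranged from -0.70 to 1.31, median 0.61, in control saline and from -0.62 to 3.84, median 2.01, in βKlf6KO saline. It ranged from -1.80 to 2.0, median 0.76, in control S961 and from -0.67 to 2.61, median 0.95, in βKlf6KO S961. The ranges of both genes overlapped under both treatments. Iigp1 had the widest range of all members, 5.65 log2 units, from 10 reads in control S961 replicate 5 to 556 reads in βKlf6KO saline replicate 1.

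The labelled genotype difference after saline was 1.03 ± 0.38 for Gbp2 (limma adjusted p = 0.154), 0.83 ± 0.29 for Gbp3 (0.134) and 1.46 ± 0.67 for Iigp1 (0.307), with 5 of 6 βKlf6KO libraries above the control mean for each. Within lanes it was 0.73 to 2.15 for Gbp2 and 0.63 to 1.79 for Gbp3. Without βKlf6KO saline replicate 5, Gbp3 reached 1.03 (limma adjusted p = 0.0494), and no other removal brought Gbp2 or Gbp3 past the threshold. After S961 the differences were 0.40 ± 0.33, 0.38 ± 0.25 and 0.73 ± 0.58 (limma adjusted p = 0.471, 0.365 and 0.459).

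Lymphocyte markers split the βKlf6KO saline libraries in the same way. The mean log2 CPM of the 10 listed was 1.44, 1.79, 0.61 and 2.61 in replicates 1, 3, 4 and 6, and -2.85 and -1.46 in replicates 2 and 5. Their sum ran from 6.27 to 12.6 CPM in control saline, 5.39 to 97.5 in βKlf6KO saline, 4.89 to 22.8 in control S961 and 5.22 to 42.8 in βKlf6KO S961. After saline 2 of the 6 markers tested were called higher in βKlf6KO, among them Cd22, a B cell receptor regulator, and 5 of 6 had an unadjusted p below 0.05. After S961 0 of the 6 were called, and 0 had an unadjusted p below 0.05. No listed marker was at 0 throughout a group, while Cd3e, Nkg7 and Cd8a matched no row. With both list means as covariates the Gbp2 difference after saline was 0.05 and that of Gbp3 0.27, and the part of lymphocytes in them was not tested.

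Of the other GTPases, Gbp6, Gbp7, Igtp and Irgm1 differed by -0.07 to 0.21 after saline. Igtp overlaps Irgm2 on the same strand, and the Gbp genes are close paralogs, so the division of their reads is uncertain. The S961 contrast in labelled βKlf6KO islets gave -0.84 ± 0.63 for Iigp1 and -0.67 ± 0.31 for Irf8 (limma adjusted p = 1.0 for both), with 7 of 8 S961 libraries below the saline mean for both. The difference of the S961 responses was -0.66 ± 0.44 for Irf8 and -0.64 ± 0.50 for Gbp2 (limma adjusted p = 1.0 for both), and all 7 GTPases were negative there. These contrasts share the βKlf6KO saline libraries with the genotype contrast after saline.

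**Figure D3:**
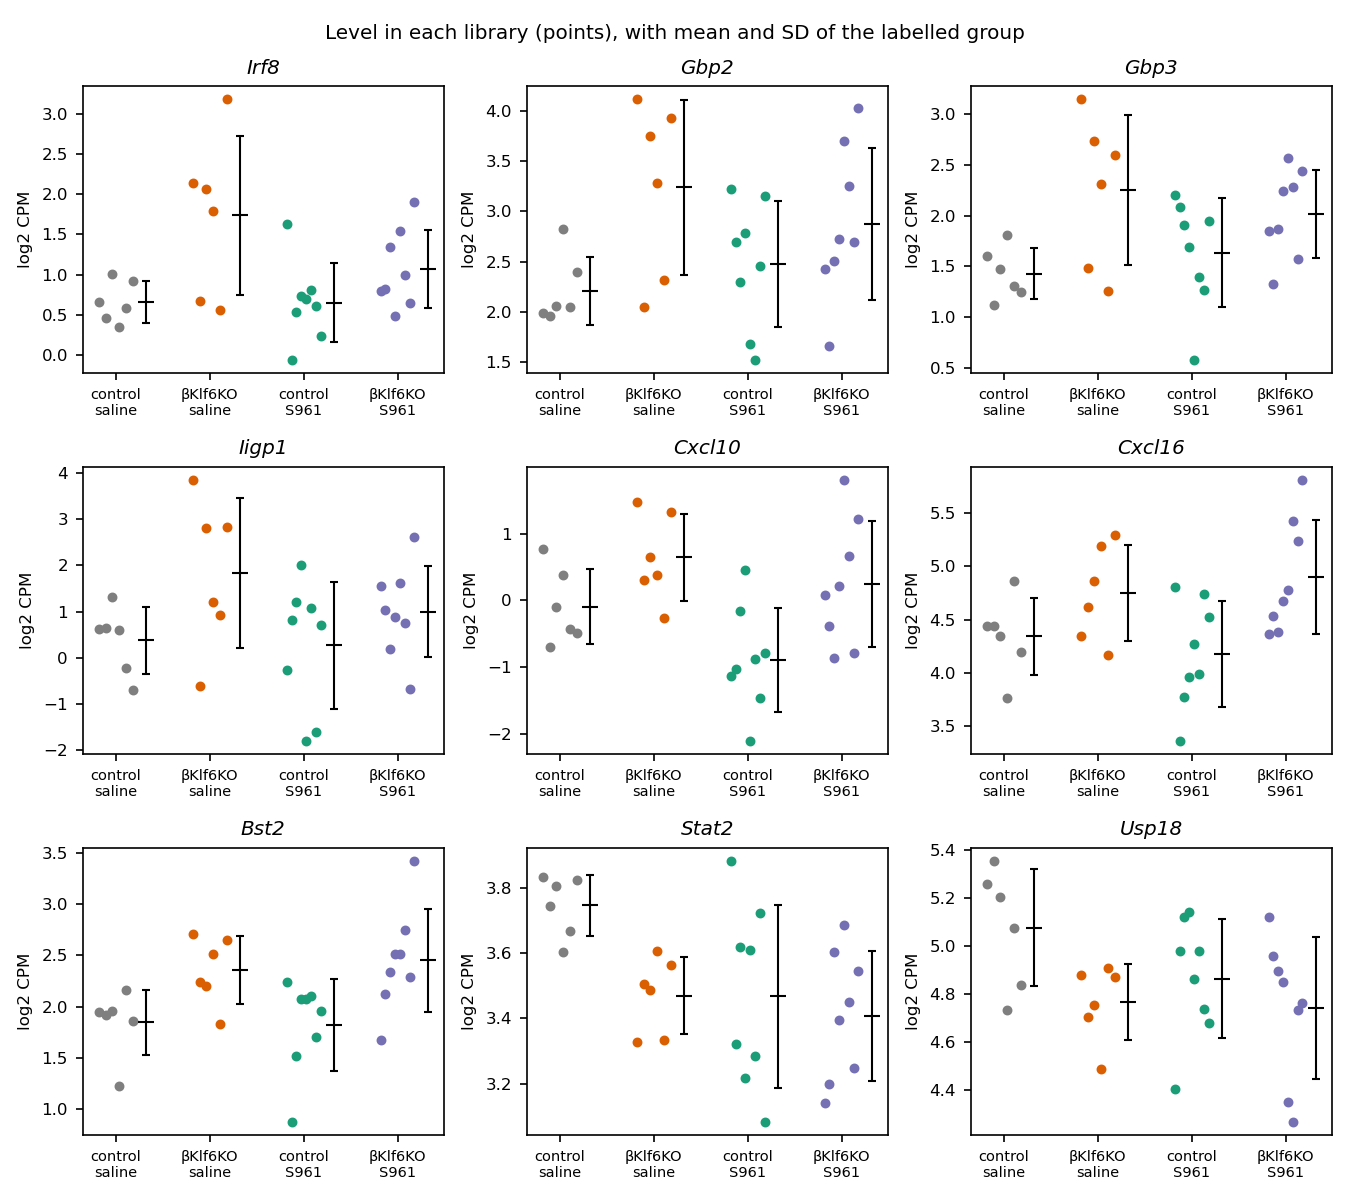
Log2 CPM of 9 members in each library (points) by labelled group, with the group mean and SD (black). For Irf8 and Gbp2, 4 of 6 βKlf6KO saline points lie above all control saline points and 2 lie among them; for Cxcl10 and Cxcl16, all 8 βKlf6KO S961 points lie above the control S961 mean and their range overlaps the control range.

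The chemokines led the genotype comparison after S961: of the 40 genes, Cxcl16 had the smallest p and Cxcl10 the largest difference. Cxcl16, a membrane-bound chemokine that draws CXCR6-bearing T cells, ranged from 3.36 to 4.80 log2 CPM, median 4.13, in control S961 and from 4.36 to 5.80, median 4.73, in βKlf6KO S961. In the saline groups it ranged from 3.77 to 4.86, median 4.39, in control and from 4.17 to 5.29, median 4.74, in βKlf6KO. All 8 βKlf6KO S961 libraries lay above the control mean, but 5 of them lay below the highest control.

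Cxcl10, which draws CXCR3-bearing T cells and whose start site carries the ISRE core shown above, ranged from -2.11 to 0.46 log2 CPM, median -0.96, in control S961 and from -0.86 to 1.80, median 0.14, in βKlf6KO S961. In the saline groups it ranged from -0.69 to 0.77, median -0.26, in control and from -0.27 to 1.47, median 0.51, in βKlf6KO. The groups overlapped under both treatments, at 8 to 136 reads a library.

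The labelled genotype difference after S961 was 0.72 ± 0.23 for Cxcl16 (limma adjusted p = 0.0618) and 1.13 ± 0.38 for Cxcl10 (0.0736). Within lanes it was 0.14 to 1.02 for Cxcl16 and 0.42 to 2.28 for Cxcl10. Cxcl16 passed the threshold without control S961 replicate 1 (0.81, limma adjusted p = 0.0399), without control S961 replicate 7 (0.80, 0.0469) or without βKlf6KO S961 replicate 1 (0.80, 0.0462), and Cxcl10 passed it without control S961 replicate 4 (1.32, 0.0356). After saline the differences were 0.40 ± 0.26 and 0.74 ± 0.43 (limma adjusted p = 0.542 and 0.481). S961 in labelled control islets gave -0.79 ± 0.41 for Cxcl10 (limma adjusted p = 0.973), with 7 of 8 libraries below the saline mean.

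Cxcl16 moved with the macrophage markers (Pearson r = 0.68, Spearman rho = 0.65, permutation p 0.00026 and 0.00084, adjusted 0.00069 and 0.0024, r = 0.57 without 2 libraries). For Cxcl10 the same r was 0.32 (rho = 0.31, permutation p 0.119 and 0.124, adjusted 0.159 and 0.174, r = 0.18 without 2 libraries). Acinar markers also varied: their mean log2 CPM was 10.4, 10.7 and 11.6 in βKlf6KO S961 replicates 6, 7 and 8. Cxcl16 stood there at 5.42, 5.24 and 5.80. Control S961 replicate 2 had 7.21 and 3.36. Control saline replicates 1 and 2 had acinar means of 10.5 and 10.6, with Cxcl16 at 4.44 in both. The relation of Cxcl16 to acinar markers was not tested. With the macrophage and lymphocyte means as covariates, the S961 difference was 0.31 for Cxcl16 (limma adjusted p = 0.319) and 1.0 for Cxcl10 (0.10), and the part of immune cells in them was not tested.

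The class I antigen presentation genes all had a higher mean in βKlf6KO, 5 of 5 under each treatment, with 0 called. Control saline replicate 4 and control S961 replicates 2 and 8 weigh on these means. They held the lowest values of the 28 libraries for Tap1, Tap2, Tapbp and H2-K1, at 7.53, 7.40 and 7.72 log2 CPM for H2-K1. B2m was high in them, at 7.31, 7.66 and 7.36. Means without these libraries are not given, but ranges are. Apart from control saline replicate 4, H2-K1 stood at 8.48 to 8.71 in control saline and 8.43 to 8.71 in βKlf6KO saline. Tap1 stood at 3.01 to 3.37 and 3.17 to 4.28. Apart from control S961 replicates 2 and 8, Tapbp stood at 7.12 to 7.69 in control S961 and 7.02 to 7.54 in βKlf6KO S961. Tap1, which with Tap2 forms the peptide transporter, differed by 0.56 ± 0.30 after saline and 0.75 ± 0.26 after S961 (limma adjusted p = 0.423 and 0.0904), with all 6 and all 8 libraries above the control mean. The ranges overlapped: the highest controls stood at 3.37 and 3.45 log2 CPM and the lowest βKlf6KO libraries at 3.17 and 2.97. B2m differed by 0.46 ± 0.25 and 0.18 ± 0.22, H2-K1 by 0.15 ± 0.21 and 0.26 ± 0.18, and Tapbp by 0.07 ± 0.13 and 0.08 ± 0.12. Tap2 differed by 0.42 ± 0.47 and 0.55 ± 0.41, with control libraries spread from 1.29 to 4.70 log2 CPM. The row H2-L ran with this group, at means of 8.02 ± 0.57 (n = 6), 8.38 ± 0.21 (n = 6), 7.88 ± 0.70 (n = 8) and 8.26 ± 0.41 log2 CPM (n = 8) in control saline, βKlf6KO saline, control S961 and βKlf6KO S961, and was not called.

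Within the labelled groups, the members split into blocks that varied in opposite directions. After removal of group means, the 946 pairs of members had a median Pearson r of 0.16 over 28 libraries, with 259 pairs above 0.5 and 133 below -0.5. Tap2 and H2-K1 had r = 0.97 and Tap2 and Ifih1 r = -0.95. B2m and H2-K1, the 2 chains of 1 molecule, had r = -0.57. Gbp2 and Gbp3 had r = 0.85 and the overlapping Parp9 and Dtx3l r = 0.90. These pairs, like Tap2 and Ifih1 below, were chosen after their values were seen, and all share the libraries and their composition.

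The blocks lay along the main axis of variation of the whole transcriptome. The first principal component of 13381 genes outside the member, pathway and marker lists held 63.1% of their variance within groups. Of the 44 members, 10 had r at or below -0.7 with it (Tap2, H2-K1, Isg20, Ifi35, Tap1, Dhx58, Ifi27, Oas1a, Tapbp and Irf1). Another 10 had r at or above 0.7 (Ifih1, Irgm1, Dtx3l, Parp9, Ddx58, Gbp7, Parp14, Rtp4, Ifit1 and B2m), and 24 lay between. For Tap2, r was -0.99 and rho -0.99, with r = -0.99 without the 2 farthest libraries; for Ifih1, r was 0.95, rho 0.93, and r = 0.91 without them (permutation p 1e-05 for each r and rho, adjusted over 88 relations 4e-05 for r and 5.2e-05 for rho). Within groups, the sensors Ifih1 and Ddx58 thus ran opposite to the class I genes Tap1, Tap2, Tapbp and H2-K1, while the sensor Dhx58 ran with those class I genes and B2m ran with Ifih1.

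**Figure D4:**
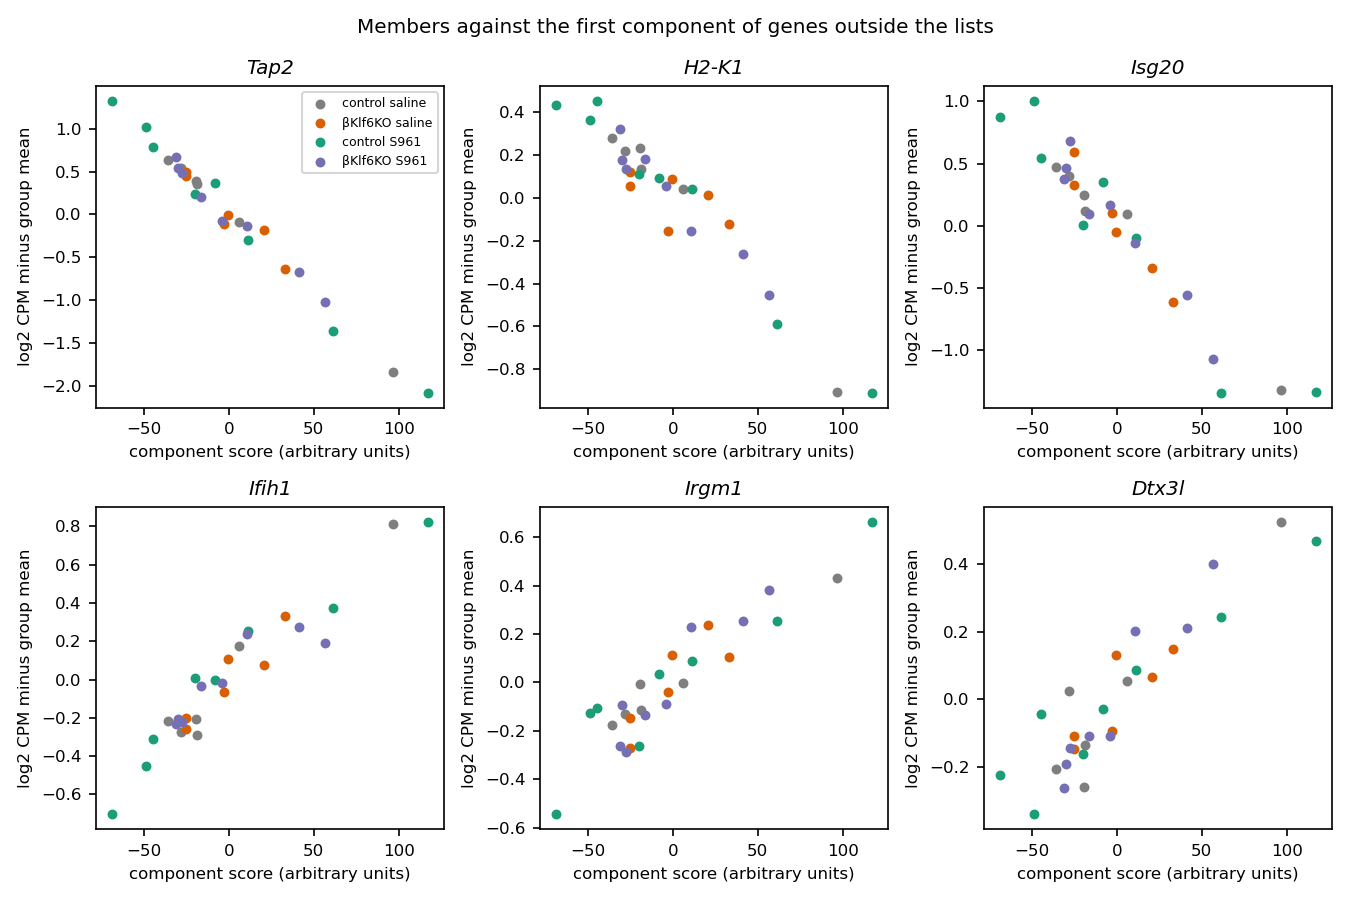
Levels of 6 members minus their group mean (log2 CPM) against the score of the first principal component of 13381 other genes (arbitrary units) in 28 libraries, coloured by labelled group. Tap2, H2-K1 and Isg20 run down and Ifih1, Irgm1 and Dtx3l run up along the same axis, with control S961 replicate 2 (score 117), control saline replicate 4 (96.4) and control S961 replicate 8 (61.2) at its end.

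The 3 libraries with the highest scores were control S961 replicate 2 (117), control saline replicate 4 (96.4) and control S961 replicate 8 (61.2), all labelled control. In them Tap2 stood at 1.29, 1.82 and 2.01 log2 CPM, the 3 lowest of its 28 values. These libraries also held the lowest β cell marker sums, given above. Their macrophage marker means were the lowest as well, at 2.01, 2.14 and 2.18 log2 CPM. GC content of the longest transcript in GENCODE M21 separated the blocks: the 10 members at or below -0.7 had 52.0% to 57.4% GC (median 54.2%), and the 10 at or above 0.7 had 41.2% to 49.0% (median 45.8%). Across the 44 genes, which are not independent replicates, Spearman's rho of GC content with r was -0.83, given as a description.

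**Figure D5:**
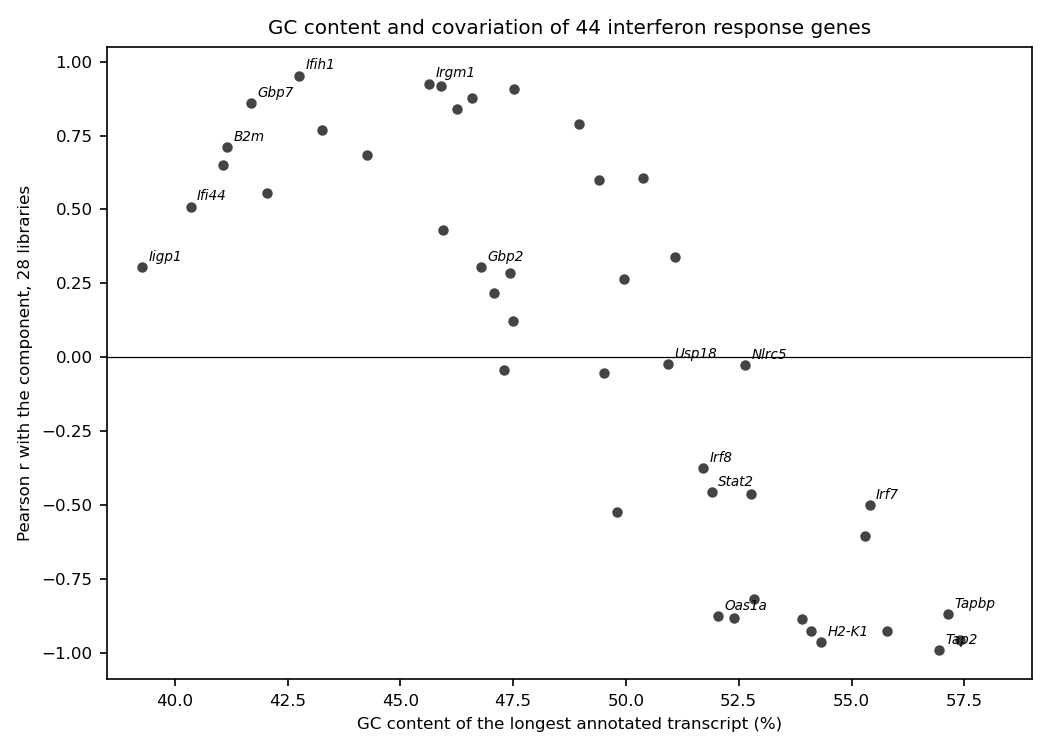
GC content of the longest annotated transcript (%) against Pearson r with the first principal component over 28 libraries, 1 point for each of 44 genes. Genes of high GC content, such as Tap2 (r = -0.99), lie at the bottom and genes of low GC content, such as Ifih1 (0.95), at the top, while Iigp1, with the lowest GC content (39.3%), lies at 0.31.

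Irf8, Gbp2, Iigp1 and Cxcl10 were not among either block, with r of -0.37, 0.30, 0.31 and 0.22. Bst2 and Cxcl16 also lay between the blocks, but with r of -0.60 and -0.52. With the component of all tested genes as a covariate, limma called 8 members after saline and 4 after S961. The 8 were Irf8 (0.95), Gbp2 (1.12), Gbp3 (0.93), B2m (0.61), Oas1a (0.50) and Tap1 (0.31) with a positive difference, and Stat2 (-0.32) and Parp14 (-0.25) with a negative one. The 4 were Cxcl10 (1.23), Cxcl16 (0.56), Bst2 (0.46) and Tap1 (0.42), all positive. This alternative was chosen after seeing the data, and in it 2821 of all 13591 genes were called after saline and 3829 after S961.

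Beyond the members, 119 further genes of the pathway were listed, of which 98 matched a row and 87 were tested. Of the 87, 7 were called for the labelled genotype after saline, all higher in βKlf6KO, and 5 after S961, 4 higher and 1 lower, beside the 2.78% and 4.36% of all genes given above. After saline the count was 2 at a filter of 5 CPM, 3 with quantile scaling, 1 with marker means as covariates, 11 without the 3 libraries of highest component score, 31 with library weights and 26 with the first component as a covariate. After S961 it was 0 in a fit of only the groups compared, 1 with marker means, 2 with quantile scaling, 3 with no scaling factor, 8 without the 3 libraries and 24 with the first component. In the same order, all genes called after saline were 117, 296, 81, 690, 3018 and 2821, beside 378 in the main fit. After S961 they were 35, 296, 395, 405, 858 and 3829, beside 593. In these settings the pathway counts thus rose where the counts of all genes rose, but not in every setting. With median centring 8 and 6 pathway genes were called after saline and S961, beside 314 and 471 of all genes. With voom they were 6 and 4, beside 390 and 680. A rise particular to the pathway was not tested. In the S961 comparisons and in the difference of responses 0 of 87 were called (limma), with 0 of 87, 4 of 87 and 2 of 87 at an unadjusted p below 0.05 and 0 by voom. None of the 9 interferon genes listed (Ifnb1, Ifna1, Ifna2, Ifna4, Ifnk, Ifne, Ifng, Ifnl2 and Ifnl3) matched a row.

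Of 9 receptor and kinase genes, 1 was called. Ifnar2, a chain of the type I receptor, stood at 3.19 ± 0.05 log2 CPM (n = 6) in control saline and 3.59 ± 0.08 (n = 6) in βKlf6KO saline. The groups did not overlap (3.14 to 3.26 and 3.47 to 3.69), and it rose by 0.40 ± 0.09 (limma adjusted p = 0.0095), a call kept without any 1 library and lost with quantile scaling (0.32, limma adjusted p = 0.0627). After S961 it differed by 0.22 ± 0.08 (limma adjusted p = 0.0840). Ifngr2, a chain of the interferon-γ receptor, had the smallest adjusted p of the list after S961 (0.52 ± 0.17, limma adjusted p = 0.0696).

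Of 13 sensing genes, 1 was called after each treatment. Tmem173 (STING), the adaptor of cytosolic DNA sensing, ranged from 0.38 to 1.29 log2 CPM in control saline and from 1.04 to 2.95 in βKlf6KO saline, overlapping at 1.04. After S961 it ranged from -0.48 to 1.37 and from 0.77 to 2.87. It rose by 1.41 ± 0.37 after saline (limma adjusted p = 0.0342) and by 1.11 ± 0.32 after S961 (0.0466). The saline call was lost without any 1 of control saline replicates 1, 2, 3, 4 and 6 or βKlf6KO saline replicates 1, 3, 4 and 6, at differences within 1.24 to 1.62. The S961 call was lost in 18 of 28 removals: without any 1 of control saline replicates 1, 2, 3 and 6, βKlf6KO saline replicates 1, 3, 4 and 5, control S961 replicates 2, 3, 5, 6 and 8, or βKlf6KO S961 replicates 3, 5, 6, 7 and 8, at differences within 0.94 to 1.24. It was also lost with a pseudocount of 1 CPM, quantile scaling, library weights, voom, no scaling factor, only the groups compared or without the 3 libraries of highest component score (limma adjusted p between 0.0520 and 0.134).

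Of 55 other interferon-stimulated genes, 3 were called after each treatment. Slfn9 and Slfn2, of the Schlafen family of growth and tRNA regulators, rose by 1.58 ± 0.30 and 2.25 ± 0.47 after saline (limma adjusted p = 0.0027 and 0.0063), calls kept without any 1 library. Slfn9 stood at 0.44 to 2.15 log2 CPM in control saline and 2.74 to 2.97 in βKlf6KO saline, with no overlap, and Slfn2 at -1.04 to 0.67 and 0.50 to 3.48, with overlap. The Schlafen genes are close paralogs, so the division of their reads is uncertain. Cxcl9, an interferon-γ-induced chemokine, held 0 to 27 reads a control saline library, with 3 of 6 at 0, and 1 to 275 reads a βKlf6KO saline library. Its fitted difference of 5.15 ± 1.38 (limma adjusted p = 0.0378) depends on the small count added before the logarithm.

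After S961, Ly6e, a membrane protein that blocks virus entry, rose by 0.71 ± 0.16 (limma adjusted p = 0.0194), Ifitm3, which blocks virus fusion, by 1.39 ± 0.36 (0.0323), and Lgals9, a galectin, by 1.07 ± 0.31 (0.0476). Their control and βKlf6KO ranges overlapped: 6.26 to 7.51 and 7.42 to 8.40 log2 CPM for Ly6e, 0.55 to 3.90 and 3.56 to 5.19 for Ifitm3, and 3.0 to 5.34 and 4.71 to 6.16 for Lgals9. The Ly6e call was lost without βKlf6KO S961 replicate 6 (0.64, limma adjusted p = 0.0508). The Ifitm3 call was lost without any 1 of control S961 replicates 2, 3 and 5 or βKlf6KO S961 replicates 5 to 8, at differences within 1.06 to 1.54. That of Lgals9 was lost in 19 of 28 removals, among them every saline library but control saline replicates 4 and 5 and βKlf6KO saline replicate 2, control S961 replicates 2 to 6 and βKlf6KO S961 replicates 4 to 8, at differences within 0.88 to 1.21. In a fit of only the groups compared all 3 calls were lost (limma adjusted p = 0.0942 for Ly6e, 0.114 for Ifitm3 and 0.113 for Lgals9). With library weights Ifitm3 and Lgals9 were lost (0.0503 and 0.109). Lgals9 was also lost with median centring, quantile scaling, no intensity trend or no scaling factor (limma adjusted p between 0.0505 and 0.0570).

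The Cxcl9 call was lost without any 1 of control saline replicates 1, 2, 4, 5 and 6 or βKlf6KO saline replicates 1, 3, 4, 5 and 6, at fitted differences within 4.71 to 6.21. It was also lost with quantile scaling, only the groups compared, lane as a covariate or voom (limma adjusted p between 0.0531 and 0.0784). Of 16 other class I pathway genes, H2-Q6 and H2-Q7 were called after saline and Calr after S961. The Qa-type class I genes H2-Q6 and H2-Q7 rose by 1.65 ± 0.45 and 2.04 ± 0.55 (limma adjusted p = 0.0414 and 0.0413), and as near-identical copies may share reads. Their calls were lost without any 1 of control saline replicates 2, 3 and 6 or βKlf6KO saline replicates 1, 3, 4 and 6. H2-Q6 also lost its call without control saline replicate 1 and H2-Q7 without control saline replicates 4 and 5 or βKlf6KO S961 replicates 3 and 5, at differences within 1.42 to 2.02 for H2-Q6 and 1.72 to 2.32 for H2-Q7. Calr, an endoplasmic reticulum chaperone of class I and of secreted proteins, fell by 0.40 ± 0.08 (limma adjusted p = 0.0075), from 9.94 ± 0.18 (n = 8) to 9.53 ± 0.08 log2 CPM (n = 8), with no overlap and kept without any 1 library. The Calr call was lost with quantile scaling (-0.30, limma adjusted p = 0.105) and in a fit of only the groups compared (0.0641). The H2-Q6 and H2-Q7 calls were lost with quantile scaling (limma adjusted p = 0.0824 and 0.0894) and in a fit of only the groups compared (0.130 and 0.0616). That of H2-Q7 was also lost with sequencing lane as a covariate (limma adjusted p = 0.0540) and with a replicate block (0.0677).

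Beside these pathway calls stood the immune markers given above. With the macrophage and lymphocyte means as covariates, Slfn9 (1.67, limma adjusted p = 0.0334) and Calr (-0.33, 0.0298) kept their calls, while Slfn2 stood at 0.70, Ifnar2 at 0.23, H2-Q6 at 0.32, H2-Q7 at 0.21 and Cxcl9 at 1.82. Tmem173 stood at 0.31 after saline and 0.49 after S961, Ly6e at 0.38, Ifitm3 at 0.68 and Lgals9 at 0.78. The part of these cells in the calls was not tested, and the class II genes in the macrophage list set the limit given above. Other lists also moved with the labels: 10 of 10 markers of dividing cells were called higher in βKlf6KO after saline and 5 of 10 after S961, fibroblast markers 2 of 9 and 4 of 9. Duct markers had 0 of 5 and 1 of 5 called higher, and β cell markers 2 of 10 and 4 of 10 lower. Markers of α, δ and PP, endothelial, acinar and plasmacytoid dendritic cells had none called in these 2 comparisons. Acinar markers still differed after S961: 6 of 6 tested had a higher mean in βKlf6KO, with a median difference of 1.03. At an unadjusted limma p below 0.05 there were 5 of 6 (smallest limma adjusted p = 0.0562), beside 22.9% of all genes. After saline it was 0 of 6, beside 14.4%.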

How the data were processed

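RNA was measured in 28 islet libraries, 1 per mouse. The authors deposited log2 CPM values in 1 table of 14219 genes. STAR 2.5.3a, HTSeq 0.9.1, edgeR and the build GRCm38 are named, without their roles, per the submitters' processing notes. Inverting the deposited log2 values gave whole reads within 0.05 for 100% of values, and 0 columns matched no sample. Library totals are in the report, and depth limits low-count genes most.

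A filter of 1 CPM in 6 or more libraries left 13591 genes and removed 628. A model of the 4 group means over the 28 libraries was fitted in limma 3.58.1 (R 4.3.3) (empirical Bayes with an intensity trend, two-sided, adjusted over all genes kept), and the fit was tested on simulated data. Label checks used exact permutation tests, and relations between measures used 100000 permutations within groups.

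The members and lists were chosen with earlier results of these data known. Values of every library are summarised for members called, the 3 members of smallest p in each comparison and the 4 of widest range. Outside the members, genes called in a fixed list are named, or else the gene of smallest p where a list is described. All other named genes were chosen after their values were seen. Iigp1 appears without sequence.

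Lane groups came from the labels. Same-numbered libraries did not deviate together (13 of 38 pairs had r above 0.1, median r -0.07), so numbers were not used as pairs. No 2 libraries agreed within sampling noise: over 86 pairs of 1 group, chi-square was at least 32.3 times its degrees of freedom. Alternatives were other filters, a pseudocount of 1 CPM, scalings, moderation, library weights, lane and replicate covariates, a fit of only the groups compared, and removal of single libraries. Further alternatives, chosen after seeing the data, used voom, dropped 3 libraries, added marker means or the first component as covariates, or used no scaling factor. Some genes of the fixed lists are not reported here.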

Additional observations from a re-analysis of the deposited data

Results flagged for a closer look

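Within each labelled group, 44 members were examined for a lowest or highest library far from the rest, by the gap to its neighbour over the group's range. That gave 19 such values in 176 groups of values; chance alone gives about 1 in 20, and the members are correlated, so the values are not independent. Of the 19, 13 belonged to control saline replicate 4, which also had the second-highest score on the first principal component (96.4).

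In control saline replicate 4, members stood low for Irf1 (4.79 log2 CPM), Dhx58 (-0.18), Ifi35 (2.46), Ifi27 (4.22), Isg20 (4.06), Bst2 (1.23), Tap1 (2.19), Tap2 (1.82) and H2-K1 (7.53). Members stood high there for Irf9 (4.90), Gbp6 (1.80), Irgm1 (5.88) and B2m (7.31). Its nearest neighbour in the group was at 3.56 for Tap2 and 6.66 for B2m.

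The other 6 values belonged to 6 libraries. Ifi44 was low in control saline replicate 5 (-3.89). Mx1 was low in βKlf6KO saline replicate 5 (-0.73) and in control S961 replicate 1 (-1.03). Gbp7 was high in control S961 replicate 2 (4.30). Gbp6 was high in βKlf6KO S961 replicate 5 (2.20), and Irf7 was high in βKlf6KO S961 replicate 8 (2.93).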

How the results depend on the processing

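Of 1172 recomputed differences of named genes, 1030 kept their direction and side of the threshold, 122 lost a call, 17 gained one and 3 reversed. All 3 reversals came with the macrophage and lymphocyte means as covariates: -0.075 for Irf8 after saline, 0.25 for Iigp1 under S961 in βKlf6KO islets and 0.16 for Gbp2 in the difference of responses. The count of members called stayed at 0 in all 5 comparisons with each alternative but library weights (9 after saline), the first component as a covariate (8 after saline, 4 after S961) and single removals (0 to 2 after saline, 0 to 2 after S961, 0 to 0 elsewhere). The 9 were B2m, Gbp3, Gbp2, Oas1a, Usp18, Bst2, Irf8, Stat2 and Tap1; why weights moved the count was not tested.

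Counts of all genes moved further. After saline (378 called) they were 117 at a filter of 5 CPM, 3018 with library weights, 690 without the 3 libraries, 81 with marker means and 2821 with the first component, and 214 to 532 without 1 library. After S961 (593 called) they were 395 with quantile scaling, 35 in a fit of only the groups compared, 296 with marker means and 3829 with the first component, and 177 to 817 without 1 library. In the S961 comparisons and the difference they stayed at 0, except 2 for βKlf6KO islets with library weights, and 0 to 0 without 1 library. Without a scaling factor the calls were 265 higher and 46 lower after saline (284 and 94 with it) and 275 and 130 after S961 (320 and 273 with it). The cause of these shifts was not tested. With a replicate block, 354 and 614 genes and 0 members were called after saline and S961. The planned edgeR quasi-likelihood fit was not run; voom on the recovered reads was run in its place. Depth limits Ifi44, Isg15, Mx2 and Nlrc5 most.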
